A study of Arabidopsis thaliana with 4 samples.

Results

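The regions described here are stretches associated with FHY1 within fixed windows around the centromeres, called pericentromeric here, in Arabidopsis thaliana seedlings. They were mapped by chromatin immunoprecipitation and sequencing (ChIP-seq). All samples came from seedlings that carry 35S:GFP-FHY1 in the fhy1-1 mutant, so the GFP fusion was driven by a constitutive promoter in a background without normal FHY1 function. The seedlings were 4 days old, had grown in the dark and had received 3 h of far-red light. The ChIP was done on 3 biological replicates, and the 1 input sample was not analysed here. The sample labels name an anti-GFP antibody and the design text one against FHY1, and the study asked which genes FHY1 associates with under far-red light. Whole seedlings were used, and there was 1 genotype and 1 light condition, so the comparisons below set parts of the genome against each other within each replicate.

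Regions were chosen by the peak calls and by position: a shared region was a stretch that the authors' peaks of 2 or all 3 replicates covered, and it was kept if its midpoint lay in 1 of 5 fixed windows around the centromeres. In TAIR10 the windows run from 12.5 to 17.5 Mb on chromosome 1, from 1.5 to 6 Mb on chromosome 2, from 11.5 to 16.5 Mb on chromosome 3, from 1.8 to 6 Mb on chromosome 4 and from 9.5 to 14.5 Mb on chromosome 5. This gave 581 regions of 17470 in the nuclear genome, or 3.33%, in windows that make up 19.9% of its extent. The rest of the chromosomes is called the arms and held 16889 shared regions. Since the peak calls set membership, numbers of regions and their enrichments are given as descriptions. Total library depths are unknown. The replicate lists held 8423, 28170 and 19150 peaks, of which 350, 1786 and 826 lay in the windows, and those window peaks contained 265751, 535707 and 312680 tags (sequenced reads counted in a peak). Replicate 1 stands apart at a few loci in the windows, described further below, and the other two replicates alone gave 519 shared regions in the windows.

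FHY1 is a small plant protein that carries the light-activated photoreceptor phytochrome A into the nucleus, where the pair is found at genes that respond to far-red light. Pericentromeric chromatin flanks the centromeres. In Arabidopsis it is rich in silenced transposable elements and repeats, poor in genes, heavily methylated and largely condensed as heterochromatin. Genes scattered within it can nevertheless be active. The windows used here were set by position and no chromatin mark was examined, so their regions need not lie in heterochromatin. FHY3 and FAR1, which activate transcription of FHY1, are themselves derived from transposases.

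The windows held few shared regions, and those present lay mostly toward the window edges, where protein-coding genes are denser. There were 24.5 shared regions per Mb in the windows and 177 per Mb in the arms. Protein-coding genes numbered 81.3 per Mb in the windows and 267 per Mb in the arms, so that there were 30.2 regions for every 100 protein-coding genes in the windows and 66.2 in the arms. The windows of chromosomes 1, 2, 3, 4 and 5 held 166, 83, 87, 110 and 135 regions. Chromosome 1 was the densest at 33.2 regions per Mb, and chromosome 3 the sparsest at 17.4. Without replicate 2 the windows held 175 shared regions, and without replicate 3 they held 195.

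The central part of the 5 windows, 11.85 Mb in all, held 92 regions, against 489 in an outer part of the same length. The central part had 500 protein-coding genes, of which 44 (8.8%) had a region assigned, whereas the outer part had 1426 genes and 298 with a region (20.9%). The central share includes genes of the chromosome 2 stretch from 3.23 to 3.62 Mb described further below, none of which had a region, and without them it was 44 of 399 (11%). Fewer regions in the centre went with fewer genes and also with a smaller share of those genes. Across 50 bins of up to 500 kb, the density of regions followed that of protein-coding genes (Spearman's rho 0.77) and ran against that of pseudogenes (rho -0.61), as a description of neighbouring bins that share the same 3 libraries. In 6 of the bins there was no shared region, although they contained 141 protein-coding genes and 387 pseudogenes. Of these protein-coding genes, 100 lay in 1 bin of chromosome 2 that holds most of the same stretch, and 41 in the other 5 bins. The bin with most regions, at the left end of the chromosome 5 window, had 44 regions, 102 protein-coding genes and 27 pseudogenes.

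**Figure D1:**
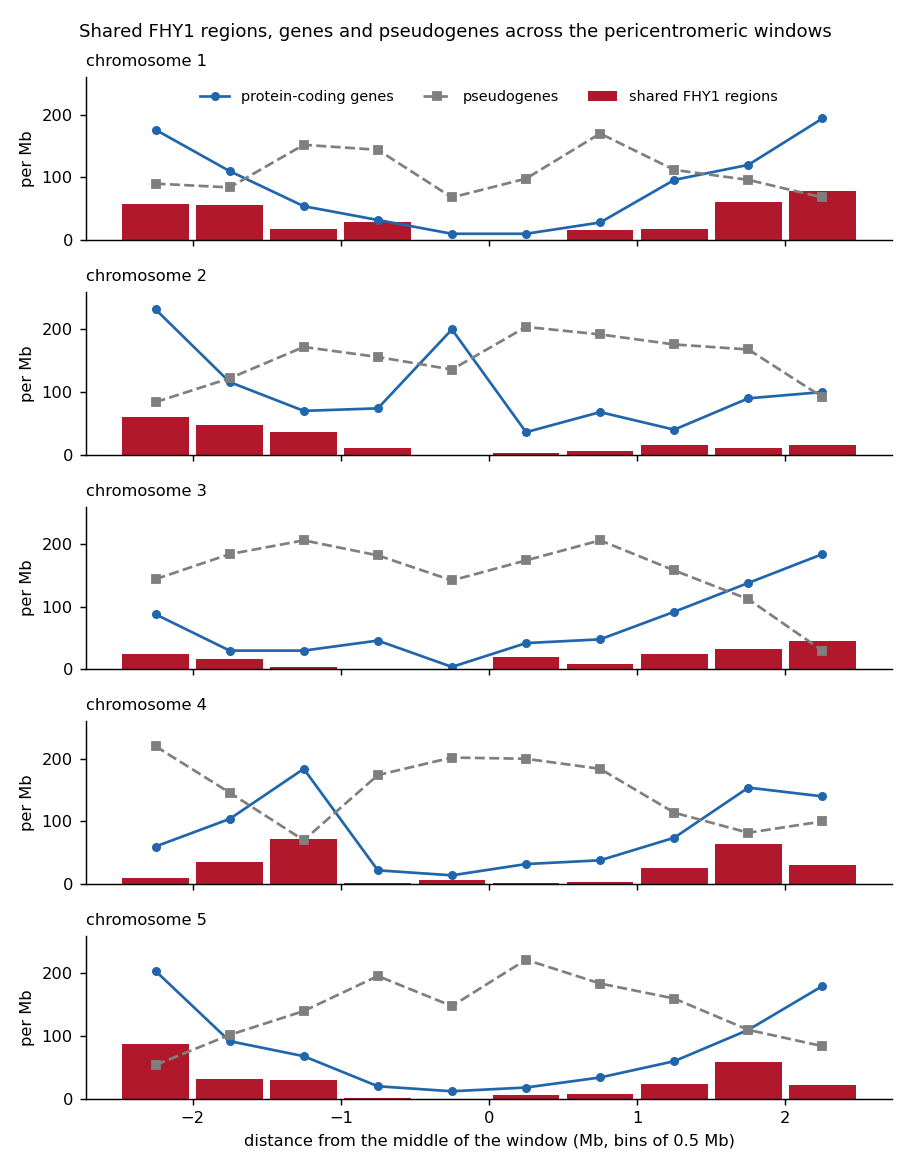
Number per Mb of shared FHY1 regions (bars), protein-coding genes (circles) and pseudogenes (squares) in bins of 0.5 Mb, plotted by distance from the middle of each window, with 1 panel per chromosome; the outermost bins of chromosomes 2 and 4 are 0.25 and 0.1 Mb long. On chromosomes 1, 2, 4 and 5 both bins beside the middle held 3 regions or fewer, whereas on chromosome 3 the bin just right of it held 10. In the chromosome 2 bin just left of the middle there were 100 protein-coding genes and no region.

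Long stretches near the window centres were free of shared regions. The longest lay at chr3:12666862-14065607 (1.4 Mb) and spanned 38 protein-coding genes and 244 pseudogenes. The longest on the other chromosomes were chr1:14308560-15605812 (1.3 Mb), chr5:11025404-12078983 (1.05 Mb), chr2:2975153-3853341 (0.878 Mb) and chr4:4073865-4797758 (0.724 Mb). Single replicates had peaks inside these gaps: the chromosome 5 gap held 12 peaks in replicate 1, 13 in replicate 2 and 4 in replicate 3, none of which formed a shared region. The region closest to the middle of the chromosome 1 window was centred in SKS6, a gene of the SKU5-similar family, and had folds of 4.47 and 4.92 in replicates 2 and 3. On chromosome 4 the region closest to the middle, from 3872428 to 3872658, was in no annotated gene and had folds of 3.68 and 3.77 in replicates 1 and 3.

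In each replicate the windows had fewer peaks per Mb, a smaller share of genes with a peak, and narrower peaks that were less often found in another replicate. Peaks numbered 14.8, 75.4 and 34.9 per Mb in the windows in replicates 1, 2 and 3, against 84.6, 276 and 192 per Mb in the arms. The means were 41.7 ± 30.9 and 184 ± 96.2 peaks per Mb (SD, n = 3), and the ratio within a replicate was 0.175 to 0.273. A gene was counted as having a peak if it held the peak's midpoint, or else was the nearest protein-coding gene within 1000 bp of it. In replicates 1, 2 and 3 this applied to 9.61%, 38.8% and 23.8% of the 1926 window genes, against 25.6%, 60.8% and 48.7% of the 25518 arm genes. The genome-wide shares were 24.5%, 59.2% and 47.0% of 27444 genes. For shared regions, 342 window genes (17.8%) and 11036 arm genes (43.2%) had one, with 41.5% of all genes as the background. Stretches covered by all 3 replicates were assigned to 106 window genes (5.5%) and 4886 arm genes (19.1%), with a background of 18.2%.

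Window peaks had median widths of 737.5, 511 and 666.5 bp in replicates 1, 2 and 3, and arm peaks of 967, 702 and 869 bp. They held a median of 349, 236.5 and 316 tags per peak, against 449, 369 and 460 in the arms, and the part of tag number in the differences was not tested. A peak of another replicate overlapped, by 1 bp or more, 58.9%, 30.6% and 63% of window peaks and 94.1%, 58.1% and 78% of arm peaks. An overlap of 1 bp is easier to reach where peaks are denser and wider, as in the arms. The part of density and width in the difference in overlap was not tested. After all peaks were merged, 1688 of 2226 window stretches (75.8%) and 15541 of 29341 arm stretches (53%) came from a single replicate and so missed the threshold. The windows had the lower value in 3 of 3 replicates for peaks per Mb, genes with a peak, width and overlap with another replicate. With 3 replicates an exact two-sided sign-flip permutation test cannot go below p = 0.25, which each of these 4 differences reached (0.281 after Benjamini-Hochberg adjustment over 9 comparisons), so none could pass a threshold of 0.05.

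**Figure D2:**
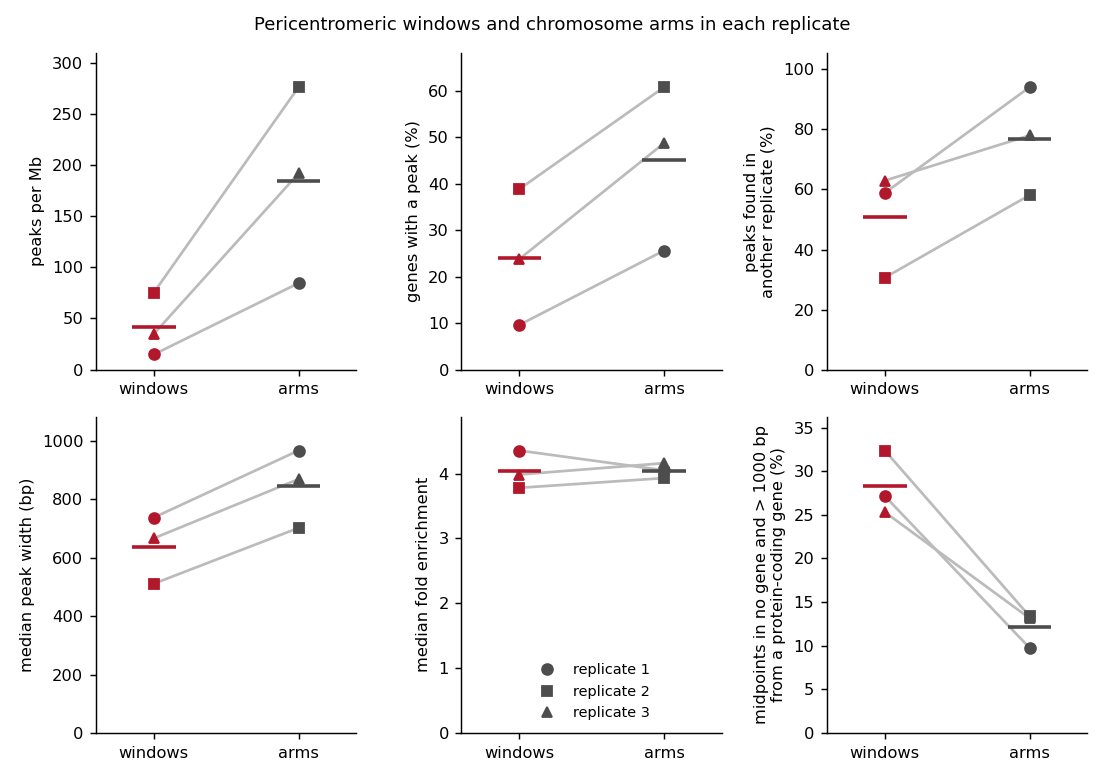
Values of the windows (red, left) and the arms (grey, right) in each replicate, joined by lines, with the mean as a bar: peaks per Mb, share of genes with a peak, share of peaks found in another replicate, median width, median fold enrichment and share of midpoints in no annotated gene and over 1000 bp from a protein-coding gene. Lines ran the same way in all 3 replicates except for fold enrichment, where replicate 1 ran against replicates 2 and 3.

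The authors' fold enrichment, a ratio against an unstated background, had no common direction between windows and arms. Its median was higher in the windows in replicate 1 and lower there in replicates 2 and 3. The median over peaks was 4.36, 3.78 and 3.98 in the windows in replicates 1, 2 and 3, and 4.05, 3.93 and 4.16 in the arms. The mean difference, in which the opposite signs cancel, was -0.0067 ± 0.27 (SD, n = 3), with p = 1 by the exact sign-flip permutation test. Among the 581 regions, 148 had peaks of all 3 replicates (25.5%), against 33.9% of arm regions, and 366 rested on replicates 2 and 3 without replicate 1 (63%, against 51.8% in the arms). A further 41 rested on replicates 1 and 2, and 26 on replicates 1 and 3. The highest fold in a region ranged from 2.95 to 86.01 with a median of 4.03 in the 215 regions with a replicate 1 peak. In the 555 regions with a replicate 2 peak it ranged from 2.95 to 9.69 (median 4.28), and in the 540 with a replicate 3 peak from 2.95 to 11.26 (median 4.27).

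The 10 regions just inside the 10 edges had folds between 3.23 and 5.92, and the 10 just outside had folds between 3.15 and 8.35. Just inside the left edge of chromosome 5 lay a region at TPR3, which encodes a co-repressor of the TOPLESS family, with folds of 5.92, 4.22 and 5.89 in replicates 1, 2 and 3. Just outside the right edge of chromosome 2 lay a region at the MADS-box gene AGL44, with folds of 4.93, 4.51 and 5.49.

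Most of the regions lay in or beside protein-coding genes, and few overlapped pseudogenes. The share of midpoints in or within 1000 bp of such genes was 71.4%, against 62.5% and 62.7% after shifts of 2000 bp either way. Inside such genes the share was 39.2%, against 42.2% and 44.2% after the shifts. Midpoints fell inside a protein-coding gene for 228 regions (39.2%, against 41% in the arms) and outside but within 1000 bp of the end of such a gene for 187 (32.2%, against 44.6%). A further 19 (3.27%, against 0.936%) were centred in another annotated gene, and 147 (25.3%, against 13.5%) had no annotated gene at the midpoint and no protein-coding gene within 1000 bp. Over all peaks of a replicate, this last class held 27.1%, 32.4% and 25.3% of window midpoints in replicates 1, 2 and 3, against 9.75%, 13.4% and 13.1% of arm midpoints. The flank class held 18.3%, 26.9% and 28.9% of window midpoints, against 38.3%, 37.9% and 40.8% of arm midpoints. Midpoints in other annotated genes made up 12.3%, 10.9% and 7.26% of window peaks, against 1.31%, 1.05% and 0.966% of arm peaks. For midpoints inside protein-coding genes the shares were 42.3%, 29.8% and 38.5% in the windows, against 50.7%, 47.7% and 45.1% in the arms. These 4 differences also kept 1 direction in 3 of 3 replicates, each at p = 0.25 by the exact sign-flip permutation test. In the windows, the other-gene class held 7.26% or more of the peaks of each list but 3.27% of the shared regions.

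Pseudogenes, the type under which this annotation also places transposable element genes, are the most numerous annotated genes of the windows. Shared regions overlapped 26 of the 3335 pseudogenes there (0.78%) and 130 of the 1508 in the arms (8.62%), with 3.22% over the genome. By the same measure 324 of 1926 protein-coding genes (16.8%) were overlapped in the windows and 12507 of 25518 (49%) in the arms, with a background of 46.8%. Long noncoding RNA genes were overlapped in 26 of 368 cases (7.07%) in the windows and in 1048 of 3112 (33.7%) in the arms, with a background of 30.9%. Transfer RNA genes were overlapped in 2 of 38 cases (5.26%) in the windows and in 292 of 587 (49.7%) in the arms, with a background of 47.0%. Of the 38 window tRNA genes, 23 lay in the stretch of chromosome 2 from 3.23 to 3.62 Mb that had no shared region. For each of these 4 types the windows had the lower share. How the authors placed reads that match more than 1 copy of a repeat is not given in the sources used here. Its part in the differences between windows and arms was not tested. Without replicate 2, or without replicate 3, the window share was 0.15% for pseudogenes, and for protein-coding genes it was 6.13% and 6.33%.

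**Figure D3:**
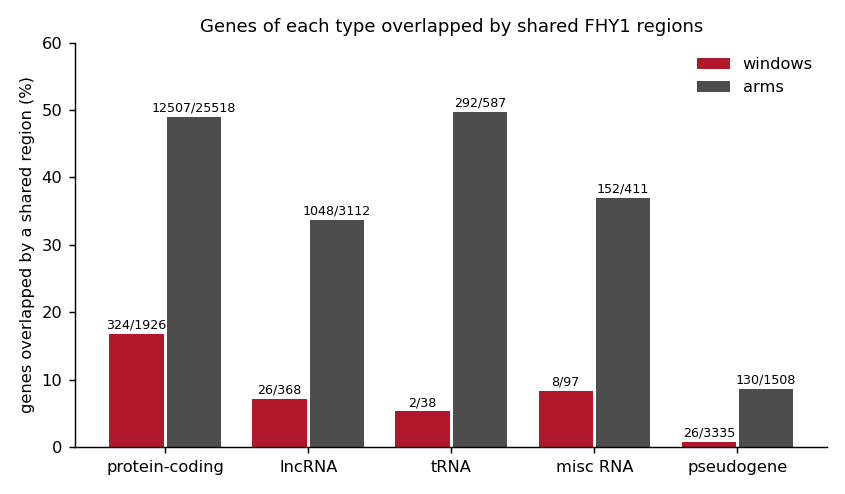
Share of genes of each type overlapped by a shared region by at least 1 bp, in the windows (red) and in the arms (grey), with the counts above the bars. All 5 types shown had the lower share in the windows, and pseudogenes had the lowest, 26 of 3335.

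Of the 19 regions centred in other annotated genes, 7 were in pseudogenes, 5 in long noncoding RNA genes, 5 in genes of miscellaneous RNA and 2 in other noncoding RNA genes. The highest-ranked pseudogene was AT3G31005, with a region at chr3:12666345-12666861 and folds of 3.93 and 4.82 in replicates 2 and 3. AT3G42052 followed, at chr3:14238776-14239158, with folds of 4.81 and 5.74 in the same replicates. Neither had a replicate 1 peak. Away from the rRNA genes, the highest-ranked region of this class was in the miscellaneous RNA gene AT5G00480 at chr5:9561255-9562087, with folds of 5.12, 8.7 and 6.25 in replicates 1, 2 and 3. The noncoding RNA genes AT5G04585, AT1G34418, AT3G05945 and AT1G07133 were also among the 10 highest, and only AT1G34418 (3.55, 4.56 and 3.89) and AT3G05945 (5.6, 5.05 and 5.5) of these had a peak in every replicate.

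The locus of the nuclear rRNA genes on chromosome 3, chosen after its values were seen, carried the highest window fold in replicates 1 and 3. Ribosomal RNA genes exist in many near-identical copies, of which the assembly holds few, so reads of other copies cannot be told apart here. Between 14.19 and 14.21 Mb, replicate 1 had 12 peaks with 44825 tags, replicate 2 had 3 with 2297 tags and replicate 3 had 1 with 419 tags. The highest fold there was 86.01 in replicate 1, 5.77 in replicate 2 and 11.26 in replicate 3. Peaks of replicate 1 covered both annotated rRNA genes, AT3G41768 and AT3G41979, with folds of 56.48, 58.02 and 79.19, but no peak of another replicate touched these, so no shared region overlapped either annotated gene. Shared regions formed close to them, 3 in the miscellaneous RNA gene AT3G06365 and 1 over the protein-coding gene AT3G41762. Whether AT3G06365 holds rRNA sequence without that label was not examined. The region from 14202714 to 14202929 had folds of 86.01 and 5.77 in replicates 1 and 2, the one from 14200952 to 14201174 had 83.62 and 4.14 in the same replicates, and the one from 14202008 to 14202454 had 66.33 and 11.26 in replicates 1 and 3. In these 3 regions the replicate 1 fold was far above that of the other list. At the end of chromosome 2, outside the windows, replicate 1 alone had 3 peaks at and beside the annotated rRNA genes there, with folds from 36.52 to 62.49.

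Chromosome 2 near its centromere is known to carry a large insertion of mitochondrial DNA, whose reads cannot be told apart from those of the mitochondria. From 3.23 to 3.62 Mb, a stretch chosen after its values were seen, replicate 1 had 11 peaks with 29077 tags and folds up to 81.78. Replicate 2 had 3 peaks with 444 tags and a highest fold of 4.32, over MCM5, and replicate 3 had none. The edges of the insertion were not determined here, so the stretch may hold other sequence too. The strongest peak, from 3239785 to 3240043, lay in ABCI5, a gene of the ABC transporter family, and the next ones, at folds of 70.76 and 67.63, in AT2G07773. No shared region formed here, although 101 protein-coding genes are annotated in it. Without these genes, 342 of 1825 window genes had a shared region, or 18.7%.

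Most of the highest replicate 1 folds in the windows lay at these 2 loci. Of the 20 peaks with the highest folds, 16 lay in the windows in replicate 1, 1 in replicate 2 and 3 in replicate 3. Replicate 1 had 10 peaks of exactly 259 bp, all 10 of them in the windows, whereas of the 13 in replicate 2 only 1 was, and replicate 3 had none. The authors' score reached its highest value in replicate 1, 3100, in 25 peaks, of which 20 were in the windows. With both loci and the rRNA genes at the end of chromosome 2 left out, the median fold of replicate 1 was 4.26 in the windows and 4.04 in the arms, and the highest window fold was 31.35. The peak at that fold lay at chr3:15557315-15558016 and formed no shared region.

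**Figure D4:**
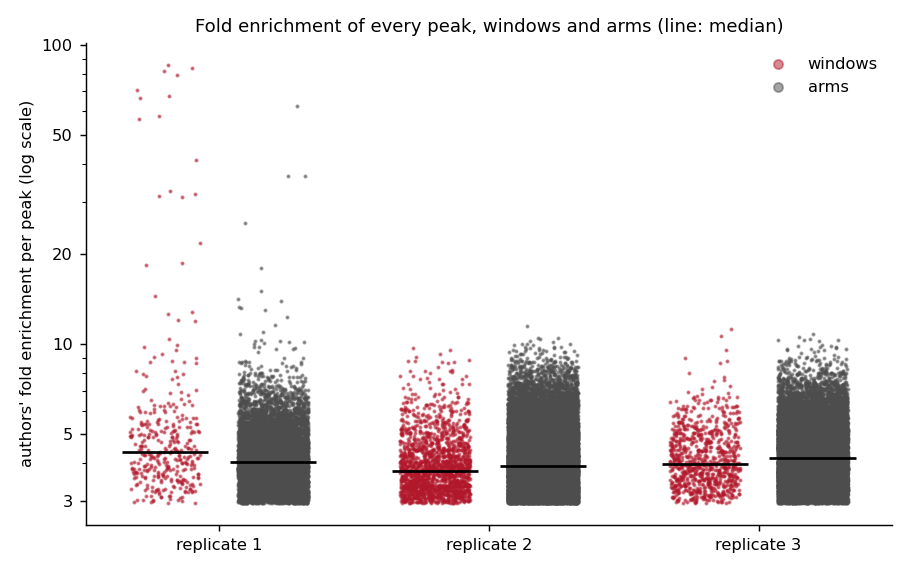
The authors' fold enrichment of every peak, on a log scale, in the windows (red) and the arms (grey) of each replicate, with medians as black lines. Window peaks of replicate 1 reached 86.01, against 9.69 in replicate 2 and 11.26 in replicate 3, while the medians lay between 3.78 and 4.36.

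Stretches covered by peaks of all 3 replicates numbered 154 in the windows. Of the 10 ranked highest by the authors' score, 9 were assigned to a protein-coding gene, among them 3 transcription factor genes. Of all shared window regions, 71.4% lay in or within 1000 bp of a protein-coding gene. No background was computed for transcription factor genes, so their number is a description. The rank was the mean percentile of the score over the 3 replicate lists. The highest was at EXO, or EXORDIUM, a gene for an extracellular protein that promotes cell expansion and responds to brassinosteroids. Its stretch at chr4:5739813-5741090 was centred in the gene and had folds of 3.82, 3.92 and 3.98 in replicates 1, 2 and 3. The folds are close to the list medians and to each other, and the shared region at EXO, at 1911 bp, was among the 5 widest. Also among the 10 was another gene of the EXORDIUM family, PHI-1, with a stretch at chr1:12851644-12852033 centred in the flank of the gene. Its folds were 4.35, 8.67 and 10.7, the lowest in replicate 1.

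FBS3, an F-box gene named for its induction by stress, was covered at chr4:2566885-2567531, with folds of 6.25, 5.04 and 6.42. RIPK encodes a receptor-like cytoplasmic kinase of immune signalling. Its stretch at chr2:2289201-2290038 was centred in the gene and had folds of 5.51, 7.09 and 9.57, which differ by more than those at FBS3. Of the transcription factor genes, MYB74 had folds of 5.02, 8.02 and 5.8 at chr4:2620160-2620941. BZIP60, a regulator of the unfolded protein response, had 4.02, 5.63 and 4.79 at chr1:16137288-16138139. STOP1, a zinc finger gene for tolerance of acid soil and aluminium, had 5.3, 5.33 and 4.45 at chr1:12549813-12550744. The midpoints of all 3 stretches lay outside the genes but within 1000 bp of an end, and the stretches themselves may reach into the genes.

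The other stretches of this rank were at AT1G45688 (5.92, 4.95 and 5.05), at AT4G05018 (3.47, 4.65 and 5.88), and at chr1:14165141-14165737, with no protein-coding gene within 1000 bp of its midpoint and folds of 7.79, 4.66 and 6.68. In 6 of the 10, replicate 1 had the lowest fold. The deposited false discovery rate of these peaks was 0.41% to 4.55%, the highest at MYB74 in replicate 2.

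**Figure D5:**
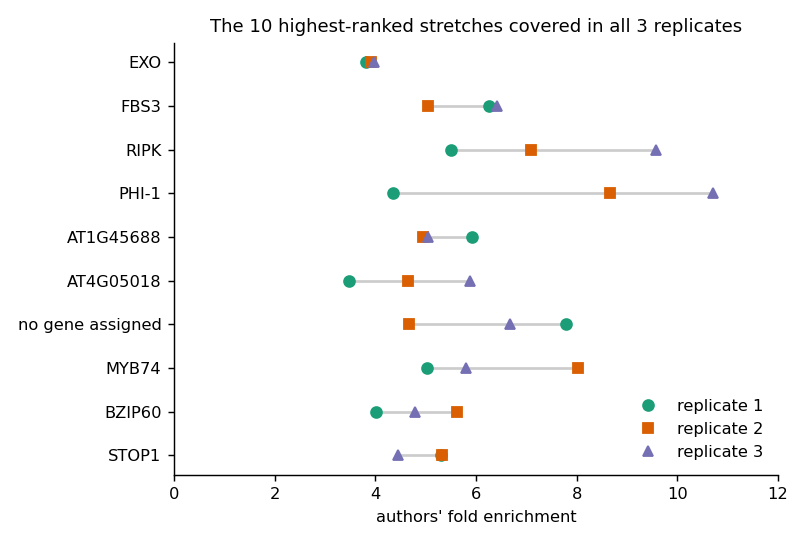
The authors' fold enrichment in replicates 1, 2 and 3 for the 10 window stretches covered in all replicates that ranked highest by score, ordered from the highest rank at the top and labelled with the assigned gene. EXO had nearly equal folds, from 3.82 to 3.98, and PHI-1 the widest spread, from 4.35 to 10.7.

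The 5 widest regions ran over gene bodies or beside them. AGP10, for an arabinogalactan protein of the cell surface, had a region of 1954 bp at chr4:5791788-5793741, with folds of 4.31, 3.34 and 3.9. NIA2, for nitrate reductase, the enzyme that reduces nitrate to nitrite, had one of 1928 bp at chr1:14160327-14162254, with 3.32 and 3.16 in replicates 2 and 3. RFNR1, for a root-type ferredoxin reductase, had one of 1922 bp with 3.29, 5.18 and 4.27, and AT2G04690 one of 1900 bp with 6.11 and 6.12 in replicates 2 and 3. Several genes had more than 1 region, namely 58 of the 342, and NIA2 had 3. The most were at AT4G08850, with 6, and at RD21A, for a cysteine protease, with 4. Neighbouring regions can share a peak, so these numbers do not count separate peaks. At NIA2 the widest region and the one from 14159462 to 14159635 shared a replicate 3 peak of 1372 tags. At RD21A the regions from 17285422 to 17286326 and from 17286352 to 17287012 shared a replicate 2 peak of 1031 tags.

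Among window genes with known roles in light responses, metabolism and signalling, 15 of 23 listed ones had a shared region, and 6 of them a stretch covered in all replicates. For a shared region the background is 17.8% of protein-coding genes in the windows and 41.5% of all, and for a stretch covered in all replicates it is 5.5% in the windows and 18.2% of all, but the list was drawn up from well-studied genes with earlier results of these data known, so its count is a description. Of the 7 genes listed under photosynthesis and chlorophyll, 6 had a region. These were LHCB2.1 and LHCB2.2 for antenna proteins, CH1 for the enzyme that makes chlorophyll b, NPQ4 for a protein of photoprotection, GAPB for a subunit of chloroplast glyceraldehyde-3-phosphate dehydrogenase, and FBP for the cytosolic fructose bisphosphatase, which acts in sucrose synthesis and not in the chloroplast, while ATPC1, for a subunit of the chloroplast ATP synthase, had 1 peak nearby in replicate 3, at a fold of 3.68.

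LHCB2.1 had folds of 3.52, 4.04 and 3.33 at chr2:1824015-1824664, and LHCB2.2 had 4.41 and 3.19 in replicates 1 and 3 from 1800045 to 1800701. The 2 genes are close copies, and their reads may have been split between them. CH1 had 3.43 and 4.12 and NPQ4 3.67 and 4.43 in replicates 2 and 3, with no replicate 1 peak in their regions. FBP had 4.79, 4.4 and 3.32. Against the medians of the highest fold per window region, 4.03, 4.28 and 4.27, the folds of LHCB2.1 were lower in each replicate. Against the medians over all window peaks, 4.36, 3.78 and 3.98, its fold was higher in replicate 2 and lower in replicates 1 and 3.

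Of the 4 light reception and signalling genes, 1 had a region: DDB1A, for an adaptor of ubiquitin ligases that acts with DET1, with folds of 3.97, 4 and 4.74 at chr4:2745318-2746536. No region was assigned to CRY1, the blue light receptor gene, where peaks of 6.59 and 4.39 lay within 1000 bp in replicates 2 and 3. PHYC, for phytochrome C, had 1 such peak, in replicate 2 at 3.51, and LSH1, named for light-dependent short hypocotyls, had none in any replicate. For nitrogen assimilation, both genes had regions. NIA2 had 3, and the one at chr1:14158149-14158832 had peaks of all replicates, with folds of 3.72, 4.97 and 3.93. GS2, for chloroplast glutamine synthetase, had a region with 3.36 and 5.07 in replicates 2 and 3.

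Of the 6 hormone and stress signalling genes, 4 had a region. MEKK1, a kinase gene of stress signalling, had folds of 4.03, 6.26 and 5.45 at chr4:5406956-5407649. The cytokinin receptor gene AHK2, listed in the annotation as HK2, had 4.35 and 5.4 in replicates 2 and 3. SOS2, a kinase gene of salt tolerance, had 2 regions, 1 of them with 6.07 and 3.68 in the same replicates. A replicate 1 peak of 4.89 was also found at or within 1000 bp of SOS2. ACS11, for ethylene synthesis, had 4.78 and 3.07 in replicates 2 and 3. ABF2, an abscisic acid response factor gene, had peaks within 1000 bp in all replicates (5.43, 8.83 and 5.66), and CYP85A2, for brassinosteroid synthesis and listed as BR6OX2, in replicates 2 and 3 (4.45 and 5.55), but to neither was a shared region assigned. The folds near ABF2 are those of the shared region at chr1:17168770-17169872, which was assigned to its neighbour AT1G45230. Of 4 genes listed under development and transcription, SEU, for a transcriptional co-regulator, had a region with 3.29 and 5.56 in replicates 2 and 3, and SAP, a flower development gene, had one with 3.8, 3.05 and 3.52. KNAT1 had a single peak nearby, in replicate 3 at 3.57, and UBQ10, a polyubiquitin gene that is active in most tissues, had peaks within 1000 bp in replicates 1 and 3, at 6.91 and 3.71, but no assigned region.

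The regions far from genes were numerous but mostly not far into gene-free chromatin. The 147 midpoints lay 1002 to 50218 bp from the nearest protein-coding gene with a median of 2279 bp, and 16 lay beyond 10000 bp. Their median width was 529 bp, against 635 bp for the other window regions, and 30 of them (20.4%) had peaks in all replicates, against 27.2% of the others. The highest-ranked region, chosen after its values were seen, lay at chr4:5738518-5739455, next to the region at EXO, with folds of 7.39 and 7.6 in replicates 2 and 3. Another, at chr3:14318024-14318707, had folds of 8.75 and 9.69 in replicates 1 and 2. The most remote region was also the closest to the middle of the chromosome 2 window, from 3853342 to 3853655, and had folds of 3.29 and 3.13 in replicates 2 and 3, near the lowest that the lists contain.

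Regions were most frequent in a few bins of the outer windows. The 3 bins of 100 kb with most shared regions each held 13, and since they were picked for their regions, their counts of genes are descriptions, beside shares of 17.8% over all window genes and 41.5% over all genes. The bin from 12.5 to 12.6 Mb on chromosome 1 had 19 protein-coding genes, 6 of them with a region, STOP1 among them. The one from 16.8 to 16.9 Mb on chromosome 1 had 14 genes, 6 with a region, including CH1, NPQ4 and ILL6, a gene for an enzyme of the family that releases auxin or jasmonate from conjugates. At ILL6 there were 3 regions, the strongest with folds of 5.36, 9.56 and 6.01 in replicates 1, 2 and 3. The one from 9.8 to 9.9 Mb on chromosome 5 had 21 genes, 11 with a region.

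The authors' series list held 3419 regions with a peak height in each of 3 samples, which could not be matched to replicate numbers. In the windows it had 93 regions (2.72%), against 3326 in the arms. Their median of the mean height was 164, against 167 in the arms, on a scale that is not stated. Of the stretches covered in all replicates, 82 of 154 in the windows (53.2%) and 2932 of 6533 in the arms (44.9%) were in the series list. The highest in the windows were at AT4G08230, at chr4:5189521-5190060, with heights of 229, 369 and 296 in samples 1, 2 and 3, and at AT1G45230, with 219, 379 and 211. They ranked 68 and 148 in the series list. DAYSLEEPER, a gene for a protein derived from a hAT transposase that is needed for normal growth, was also among the 10 highest, with heights of 185, 363 and 180. Its shared region at chr3:14320588-14322166 had folds of 5.41, 8.43 and 6.19 in replicates 1, 2 and 3.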

How the data were processed

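The submitters' processing notes name Bowtie, with no version, and the build TAIR10. Peak caller and control track: not given in the sources used here. For each replicate there is 1 deposited peak list, which has no header, and column meanings were read from the values. Each deposited list gives a whole-number tag count, which appears unnormalised, the authors' score (laid out like a scaled -log10 p), the authors' fold enrichment, a ratio, and the deposited false discovery rate in percent. The deposited series list gives a height as its signal.

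From these, shared regions, overlaps (at least 1 bp), classes and the assignment of genes within 1000 bp were computed with Python 3.11.15, numpy 2.4.6 and pandas 2.3.3, tested on simulated data. Gene names, types and positions came from a RefSeq table of TAIR10.1 (27444 nuclear protein-coding genes). These positions set the classes, neighbours and overlaps but are not printed here. The last gene or peak end set chromosome extents. As a check of the coordinates, 71.4% of window midpoints were in or within 1000 bp of protein-coding genes, against 62.5% and 62.7% after shifts of 2000 bp either way, and 39.2% were inside such genes, against 42.2% and 44.2%. No strand, exon or UTR was used, nor any genome or promoter sequence, so planned motif counts and printed sequences were left out.

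The replicate was the unit of comparison. The windows, the gene lists and the rules for naming were chosen with earlier results of these data known. Named were the 10 highest-ranked stretches covered in all replicates, the 5 widest regions, listed genes in the windows, regions centred in other genes (up to 10), those nearest window middles and edges, and the 3 fullest bins. Of the 24 listed genes, 23 lay in a window. Replicates came from separate biological samples per the labels.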

Additional observations from a re-analysis of the deposited data

How the results depend on the processing

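Under the alternatives, 73 values kept their direction or stayed near the reported value, 13 moved and 6 reversed. The mean difference in median fold between windows and arms had no stable direction: it was -0.16 to 0.078 when 1 replicate was left out, 0.077 with a false discovery rate of at most 1%, 0.082 with a fold of at least 5, 0.05 with windows drawn in by 0.5 Mb and 0.225 with 8423 peaks per list. Leaving out 3 loci of high folds, added after seeing the data, gave -0.037. Leaving the chromosome 2 stretch out of the central windows, also added later, gave 11% of genes with a region in place of 8.8%. The number of window regions was 175 to 519 with 1 replicate left out (175 without replicate 2 and 195 without replicate 3), 154 when all 3 replicates had to cover a stretch, 92 with a fold of at least 5 and 348 in the narrower windows, which held 1.99% of shared regions. The share of window pseudogenes overlapped was 0.15% to 0.69% with 1 replicate left out. It was 0.42% with a false discovery rate of at most 1% and 0.030% with a fold of at least 5. For window protein-coding genes the share was 6.13% to 15.2% with 1 replicate left out, and 2.86% with a fold of at least 5. The limit of 1% also removed some peaks of high score, such as that at MYB74 in replicate 2 (score 1833.88, rate 4.55%). It therefore does not select the strongest peaks. Counts fall by construction as peaks or replicates are removed. The other compared differences kept their direction under every alternative run. No paired analysis was possible between groups of samples because there is 1 ChIP group. The differences between windows and arms were paired within each replicate. Library depths are unknown, so their part in whether a region appears in a list was not tested.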

Other observations

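The following window regions were chosen for their gene names, after their values were seen, and stand for no group. CHR38, also known as CLASSY1, a chromatin remodelling gene of RNA-directed DNA methylation, had folds of 4.93, 6.82 and 4.18 in replicates 1, 2 and 3 on chromosome 3 from 14760400 to 14761069. HDA9, for a histone deacetylase, had 3.83, 3.41 and 4.11, and CAF1a, for a deadenylase that shortens mRNA tails, had 5.27, 5.82 and 6.19. SFR6, for a subunit of the Mediator complex, had 5.28 and 5.05 in replicates 2 and 3. The gibberellin receptor gene GID1C had 5.55, 5.62 and 4.88 on chromosome 5 from 9628681 to 9629342. FBH1, for a bHLH factor that activates CONSTANS, had 5.89, 5.2 and 4.49, and its homologue FBH2 had 5.13 and 3.94 in replicates 2 and 3.

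Some neighbouring gene copies each had regions. The nitrilase genes NIT1, NIT2 and NIT3 on chromosome 3 had 4 regions between them, the strongest at NIT2 with folds of 7.84 and 5.07 in replicates 2 and 3. The A-type cyclin genes CYCA3;2, CYCA3;3 and CYCA3;4 on chromosome 1 had 3, and in replicate 1 the same peak, at a fold of 6.53, gave the values of CYCA3;3 and CYCA3;4. How the authors placed reads between such copies is not given in the sources used here.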
